A study of Mus musculus with 13 samples.

Results

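The genes described here are 6 receptors of the tumour necrosis factor (TNF) superfamily other than Fas: Tnfrsf12a, Tnfrsf1a, Tnfrsf10b, Tnfrsf21, Tnfrsf1b and Ngfr. They were found as the probes whose description carries one of these symbols, which gave 11 of the 24613 probes with a signal, for 6 of 17860 genes. RNA came from primary cortical neurons of Swiss albino mouse fetuses at gestational day 15 or 16, kept in culture to day 5, and was hybridised to Illumina mouse bead arrays. Cultures had received vehicle (n = 4) or 10 nM rotenone, which blocks complex I of the mitochondrial electron transport chain, with 3 samples at each of 8 h, 15 h and 24 h. The study followed which genes change while rotenone kills the neurons. The genes were picked for their response in these same arrays, so their changes are given as a description, without a p-value.

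TNF superfamily receptors are membrane proteins, most of which bind trimeric ligands, while p75, the product of Ngfr, binds neurotrophins. Receptors with a cytoplasmic death domain, among them the products of Tnfrsf1a, Tnfrsf10b, Tnfrsf21 and Ngfr, can signal cell death, in several cases through the adaptors TRADD or FADD and caspase-8. Receptors without one, such as the products of Tnfrsf12a and Tnfrsf1b, bind TRAF proteins and feed NF-kB and stress kinase signalling. In the nervous system the family is known for axon pruning, neuron death during development and the response to injury and inflammation.

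Nothing says that the replicates were separate cultures, so the p-values rest on a spread between samples that may be technical, and the number of arrays limits the precision. Nor is the sampling time of the vehicle cultures stated, so drug and time in culture cannot be told apart. In bulk RNA, fewer cells of a type and less RNA per cell cannot be told apart either. Mean probe signal per array lay between 325 and 405 with vehicle, 340 and 403 at 8 h, 255 and 287 at 15 h, and 222 and 259 at 24 h. One 15 h array, replicate 1, stood apart from its group, with a mean correlation of 0.975 with the others against 0.986 to 0.987 for replicates 2 and 3, and 8 h replicate 2 had the lowest value of its group, 0.988. Several results that rest on these arrays are given without them too. Levels below are normalised signals on a linear scale, after background correction and quantile normalisation. Changes are log2 differences of group means with the standard error (SE) of a limma fit of all 4 groups over 11068 genes, and a gene is called changed where its Benjamini-Hochberg adjusted p over all genes is under 0.05. Signals of different probes are not compared with each other.

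Of the 6 genes, 5 had a probe detected on all 13 arrays: Tnfrsf12a, Tnfrsf1a, Tnfrsf10b, Tnfrsf21 and Tnfrsf1b. The exception, Ngfr, was detected on 0 of 13. At 8 h 0 of the 5 measured genes were called by limma, where 0.434% of all genes were, and 1 of the 5 had an unadjusted p under 0.05, as had 10.7% of all genes. At 15 h 3 were called higher and 1 lower, against 25.4% and 24.7% of all genes, 50.1% in all. At 24 h it was again 3 higher and 1 lower, against 27.4% and 27.3% of all genes, 54.7% in all. Nothing is read from these counts, since the genes were chosen on the same comparisons.

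**Figure D1:**
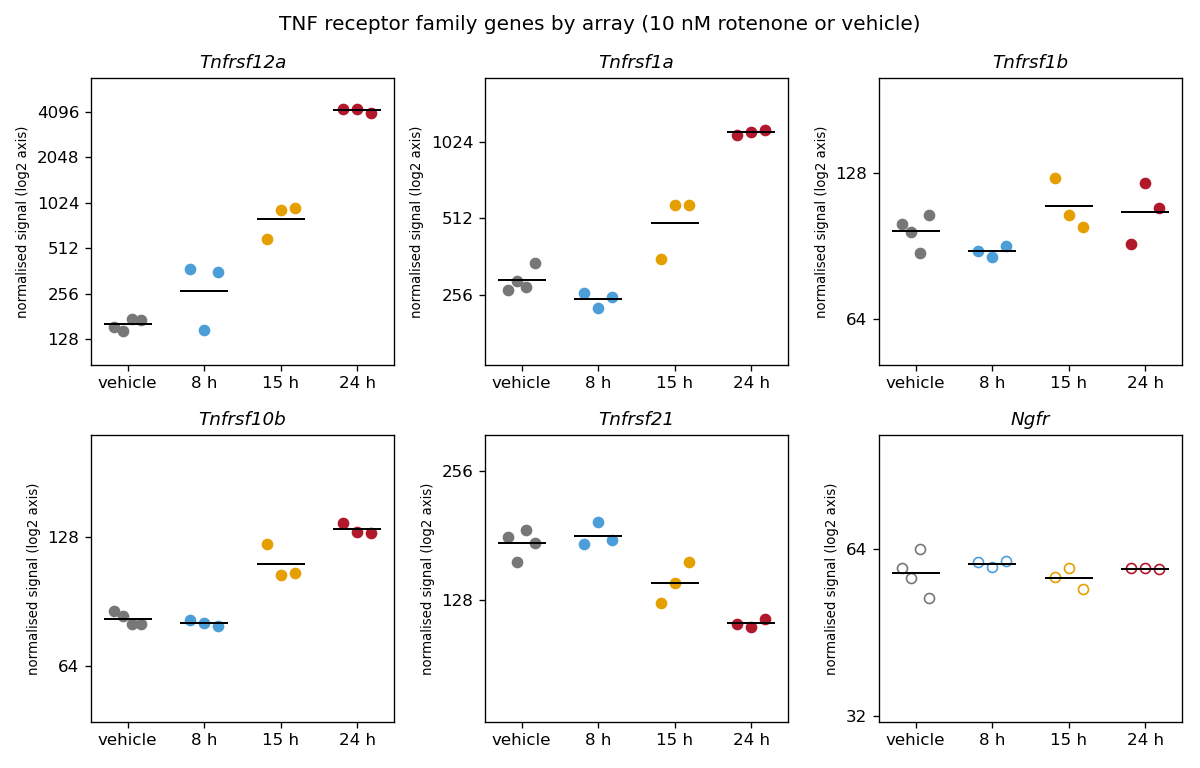
Normalised signal (log2 axis) of the 6 receptor genes on each array, by vehicle and 8 h, 15 h and 24 h of 10 nM rotenone. Filled points were detected, open points were not, and bars are geometric means. Tnfrsf12a reached 4041 to 4262 at 24 h, against 145 to 173 with vehicle, while Tnfrsf21 was lower at 24 h than on any vehicle array and Ngfr was detected on 0 arrays.

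The promoter windows, 250 bases before to 50 after the start of the gene, are shown for the steepest riser, for the second riser and for the gene that went down. They come from RefSeq (GRCm38.p6), which held a window for 5 of the 6 genes, and Tnfrsf10b was the exception. Capitals mark the GC box, GGGCGG or its complement CCGCCC. The windows lie at chr17:23677400-23677699 on the minus strand for Tnfrsf12a, chr6:125349473-125349772 on the plus strand for Tnfrsf1a and chr17:43016305-43016604 on the plus strand for Tnfrsf21.
Tnfrsf12a: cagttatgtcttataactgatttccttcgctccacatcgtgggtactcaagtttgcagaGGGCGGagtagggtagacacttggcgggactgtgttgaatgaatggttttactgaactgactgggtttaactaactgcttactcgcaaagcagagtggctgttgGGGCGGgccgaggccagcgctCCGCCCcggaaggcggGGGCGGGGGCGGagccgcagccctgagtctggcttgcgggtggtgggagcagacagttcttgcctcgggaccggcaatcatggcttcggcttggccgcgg
Tnfrsf1a: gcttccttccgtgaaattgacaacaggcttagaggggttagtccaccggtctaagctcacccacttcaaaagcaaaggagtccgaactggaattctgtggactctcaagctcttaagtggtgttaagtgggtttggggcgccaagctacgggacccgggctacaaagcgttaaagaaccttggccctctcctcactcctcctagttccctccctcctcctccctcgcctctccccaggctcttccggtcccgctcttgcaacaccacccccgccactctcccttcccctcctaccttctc
Tnfrsf21: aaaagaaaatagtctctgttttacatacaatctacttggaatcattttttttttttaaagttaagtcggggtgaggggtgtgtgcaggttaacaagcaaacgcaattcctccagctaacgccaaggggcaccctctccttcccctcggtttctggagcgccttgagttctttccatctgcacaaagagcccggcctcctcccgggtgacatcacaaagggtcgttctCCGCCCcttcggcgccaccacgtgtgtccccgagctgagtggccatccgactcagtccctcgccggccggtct

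The Tnfrsf12a window held 5 GC boxes, all before the start, and the Ngfr window 4, the Tnfrsf1b window 2, the Tnfrsf21 window 1 and the Tnfrsf1a window 0. A GC box was present in 35.7% of 32851 mouse promoter windows of this length. Searched on both strands, the AP-1 motif TGANTCA (7.81% of windows), the NF-kB motif (0.411%), the C/EBP-ATF motif TGATGCAAT (0.192%) and the antioxidant response motif TGACNNNGC (12.4%) had no match in the 5 windows. The absence says only that these letters are not in these windows.

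Tnfrsf12a encodes Fn14, the receptor for the cytokine TWEAK. Its normalised signal was 154, 145, 173 and 169.8 on the vehicle arrays, 370.1, 146 and 356 at 8 h, 591, 911 and 938 at 15 h, and 4251, 4262 and 4041 at 24 h. At 8 h 2 of 3 arrays lay above every vehicle array and replicate 2 lay within the vehicle range. The 15 h and 24 h arrays all lay above every vehicle array, and the 24 h arrays above every 15 h array. Such separation from vehicle, here and for the receptors below, occurred in either direction for 50.1% of all genes at 15 h and 60.9% at 24 h. Between 24 h and 15 h it occurred for 39.2%. The change of Tnfrsf12a was 0.75 ± 0.25 (SE) at 8 h, which was not called, 2.32 ± 0.25 at 15 h and 4.71 ± 0.25 at 24 h. The last is a 26.2-fold difference, which ranked 1 of 11068 genes from the highest at 24 h, as against rank 16 at both 8 h and 15 h. Between 24 h and 15 h the change was 2.39 ± 0.26, again rank 1 of 11068, and between 15 h and 8 h it was 1.57, rank 148, or 1.13 without 8 h replicate 2. With the authors' deposited normalised values the step between 15 h and 8 h was 1.17 and its call was lost.

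The 8 h value of Tnfrsf12a rested on replicate 2. Without that array the change was 1.18 ± 0.16 and was called. Within chips it was 0.41 and 1.31, with the arrays assigned to the 2 chips by matching signals, but the chip with 1.31 holds a single 8 h array. At 24 h the fold was 18.2 with median scaling in place of quantile normalisation, and 16.6 with no scaling between arrays, which is over 1.5 times lower.

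Tnfrsf1a encodes TNF receptor 1, the death-domain receptor of TNF. Its signal was 267, 289, 276 and 340.0 with vehicle, 261, 226 and 251 at 8 h, 356, 579 and 577 at 15 h, and 1096, 1127 and 1141 at 24 h. The 8 h arrays all lay below the vehicle arrays, though the change of -0.25 ± 0.15 was not called, and groups without overlap occurred for 11.4% of genes at 8 h. From 15 h on all arrays lay above the vehicle arrays. The change was 0.75 ± 0.15 at 15 h and 1.94 ± 0.15 at 24 h, a 3.85-fold difference that ranked 112 of 11068. The change between 24 h and 15 h, 1.19, ranked 61.

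At 15 h Tnfrsf1a lost its call with median scaling (0.29), with no scaling (0.20) and with the authors' deposited normalised values (0.32), and without replicate 1 its change was 0.99. At 24 h the call held in those settings, at 1.30, 1.16 and 1.45 on the log2 scale, and the fold with no scaling was 2.24. A second probe of Tnfrsf1a was detected on 2 of 13 arrays, both at 24 h, where its signal was at least 1.06-fold higher than with vehicle.

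Tnfrsf10b encodes the mouse death receptor for TRAIL. Its detected probe measured 86.1, 83.7, 80.4 and 80.2 with vehicle, 82.0, 80.8 and 79.3 at 8 h, 123, 104 and 106 at 15 h, and 138, 132 and 131 at 24 h. The groups at 15 h and 24 h overlapped neither vehicle nor each other, and the 8 h range overlapped that of vehicle. The change was -0.03 ± 0.07 at 8 h, 0.42 ± 0.07 at 15 h and 0.69 ± 0.07 at 24 h, a 1.61-fold difference. Its deposited signal stayed between 58.0 and 95.6, where probes counted as detected from 48.6 to 62.3, depending on the array. With the signals of the gene profile, another summary of the same arrays, the 24 h change was 0.49, and with neqc, another background correction, applied to that profile it was 0.08.

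Tnfrsf10b had 3 further probes. One was detected on 0 vehicle, 0 of the 8 h, 2 of the 15 h and 3 of the 24 h arrays. Its signal was 110.0, 106 and 119 at 24 h, against 55.4, 60.9, 64.0 and 58.7 with vehicle, where it was not above background, and was thus at least 1.49-fold higher. Another, which the array annotation marks as a reverse complement, was detected on 3 of 13 arrays, 1 at 15 h and 2 at 24 h, and was at least 1.08-fold higher at 24 h. The last was detected on 0 arrays. The 3 probes with a detected signal were all higher at 24 h than with vehicle, with no overlap between the groups. Groups did not overlap for 60.9% of all genes at that time. Of the 3 probes, 2 were detected at 15 h and 24 h only. Choosing detected probes thus itself favours a rise, and nothing is read from their agreement.

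**Figure D2:**
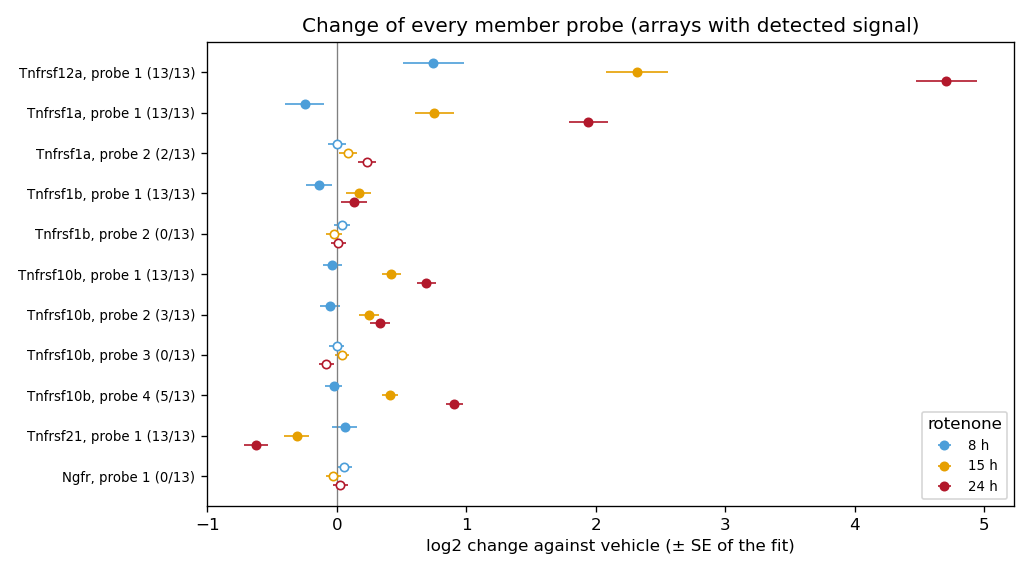
Log2 change against vehicle (x axis, ± SE of the fit over all probes) of the 11 probes of the 6 genes at 8 h, 15 h and 24 h of rotenone. The label gives the arrays out of 13 with a detected signal, and open points are probes detected on fewer than 3. The Tnfrsf12a probe lies farthest to the right at 24 h, at 4.71, and the Tnfrsf21 probe farthest to the left, at -0.63.

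Tnfrsf21 encodes death receptor 6, which has been linked to axon degeneration in neurons. It had a signal of 179.6, 157, 186 and 174 with vehicle, 173, 194 and 176 at 8 h, 125, 139.7 and 157 at 15 h, and 112, 110.3 and 115 at 24 h. It was the measured gene of the 6 that went down. The 24 h arrays all lay below the 15 h and vehicle arrays, while at 15 h the highest array, replicate 3, fell in the vehicle range. The change was 0.06 ± 0.10 at 8 h, -0.31 ± 0.10 at 15 h and -0.63 ± 0.10 at 24 h, a ratio of 0.648. At 15 h it was not called without replicate 1 (-0.23) or within 3 of the 4 chip subsets. Both subsets of the second chip hold a single 15 h array, which the fit assumes to vary like the other groups. Its change at 24 h was -0.89 with median scaling, -1.02 with no scaling and -0.19 with neqc on the gene profile, and the call held in each.

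Tnfrsf1b encodes TNF receptor 2, which lacks a death domain and is best known from immune and endothelial cells. Its signal was 100.5, 96.9, 87.6 and 105 with vehicle, 88.5, 86.1 and 90.5 at 8 h, 125, 105 and 99.2 at 15 h, and 91.5, 122 and 108 at 24 h. The 8 h, 15 h and 24 h ranges all overlapped that of vehicle. The changes against vehicle were -0.14, 0.17 and 0.13 at 8 h, 15 h and 24 h, each ± 0.10 and not called, and the 24 h value turned to -0.15 with no scaling and -0.01 with median scaling. Between 15 h and 8 h the change was 0.31 ± 0.11, with no overlap, and it was called. That call was lost with median scaling (0.19), no scaling (0.15), the authors' values (0.24), the gene profile's signals (0.12) and neqc on them (0.02), within 2 of the 4 chip subsets, and without 15 h replicate 1 (0.21) or 8 h replicate 1 or 2. A second probe was detected on 0 arrays.

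Ngfr encodes p75, the common receptor of the neurotrophins and their precursors. Its probe had a deposited signal of 30.6 to 46.5 and was not detected, so no level and no fold are given for it. Of the other 10 probes, 2 more were likewise detected on 0 arrays, the second one of Tnfrsf1b and one of Tnfrsf10b.

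The plot of all genes in order of change shows where the 5 measured receptors stood. At 8 h Tnfrsf21 ranked 3347, Tnfrsf10b 6648, Tnfrsf1b 9378 and Tnfrsf1a 10459 from the highest of 11068. At 15 h Tnfrsf1a ranked 787 and Tnfrsf10b 1851 from the highest, and Tnfrsf21 2447 from the lowest. At 24 h the ranks were 112 and 1149 from the highest and 1354 from the lowest. Tnfrsf1b stood at rank 3536 from the highest at 15 h and at 4012 at 24 h. The 15 h and 24 h comparisons share the vehicle arrays.

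**Figure D3:**
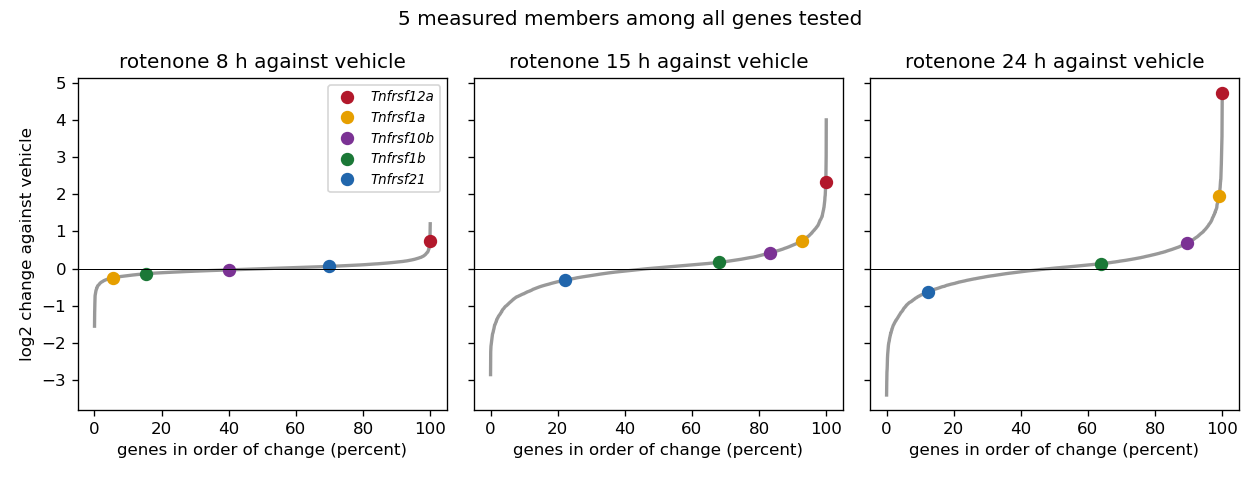
Log2 change against vehicle (y axis) of all 11068 genes, in order of change as a percentage of genes (x axis, grey line), at 8 h, 15 h and 24 h of rotenone, with the 5 measured receptor genes as points. Tnfrsf12a stands at the top at 24 h, at 4.71, Tnfrsf1a well below it in change, at 1.94, and Tnfrsf21 on the lower side at 15 h and 24 h.

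Setting the later time against the earlier one, 5 of 5 genes were called between 15 h and 8 h, 4 higher and 1 lower, where 51.1% of all genes were called, 25.8% higher and 25.3% lower. Between 24 h and 15 h 4 of 5 were called, 3 higher and 1 lower, where 22.4% of genes were, 12.3% higher and 10.2% lower, with Tnfrsf1b, at -0.04, the exception. The call of Tnfrsf21 between 24 h and 15 h was lost with any one of 15 h replicates 2 and 3, the 3 arrays at 24 h and vehicle replicate 1 left out, and that of Tnfrsf10b without 15 h replicate 2 or 3 or 24 h replicate 1. Groups did not overlap for 4 of the 5 genes between 24 h and 15 h, 3 higher and 1 lower, against 39.2% of all genes, and for 5 of 5 between 15 h and 8 h, against 56.6%. Across the 13 arrays the log2 signals of Tnfrsf12a and Tnfrsf1a had a Pearson correlation of 0.95 and those of Tnfrsf10b and Tnfrsf21 of -0.96, while Tnfrsf1b reached at most 0.62 with a riser. These correlations are descriptions over arrays that share their groups.

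The cultures were called cortical neurons, and the sums of neuron markers were lower at 15 h and 24 h than with vehicle. At 15 h 6 of 8 measured general neuron markers were called lower and 1 higher, and of 9 glutamatergic markers 8 lower and 0 higher. Over all genes 24.7% were called lower and 25.4% higher at that time. The summed signal of 8 of 10 general neuron markers was 4226 to 4540 at 24 h, against 15183 to 17427 with vehicle, and that of 9 of 9 glutamatergic neuron markers was 2202 to 2537, against 4516 to 4831, with 7 of the 8 and 8 of the 9 called lower and 0 higher. The glutamatergic sum was 2307 to 2456 at 15 h, so its 24 h range overlapped the 15 h one. Beside these and the marker counts below, 27.4% of all genes were called higher and 27.3% lower at 24 h. At 8 h the shares were 0.145% and 0.289%. All marker sums and counts are after quantile normalisation only. The 10 of 12 measured astrocyte markers summed to 27054 to 28428 at 24 h, against 14771 to 16721 with vehicle, with 5 called higher, 2 lower and 3 not called, and the 7 of 12 fibroblast and mural markers to 21322 to 23034, against 4829 to 5771, with 5 called higher and 1 lower. For the microglia markers, 9 of 13 measured, the sums were 3945 to 4197 at 24 h and 1292 to 1472 with vehicle, 7 being called higher and 0 lower, with Csf1r, Cx3cr1, Itgam and Fcer1g not detected on 3 arrays. The oligodendrocyte lineage markers (9 of 12) summed to 4576 to 5038 at 24 h, against 11797 to 12856 with vehicle, with 6 called lower and 1 higher. Of 8 endothelial markers 4 were measured, with sums of 325 to 349 at 24 h and 291 to 302 with vehicle, of which 1 was called higher and 3 were not called, and Pecam1, Cdh5, Kdr and Tek were not detected on 3 arrays. Slc1a2 and S100b (astrocyte) and Col1a1, Col1a2, Col3a1 and Lum (fibroblast) were likewise below that limit. At 15 h the general neuron sum was 3203 to 5587, the astrocyte sum 30578 to 36298, the fibroblast and mural sum 12948 to 14027 and the microglia sum 2223 to 3111. At 8 h, where Tnfrsf12a was higher on 2 of 3 arrays, the microglia sum was 1287 to 1360, the astrocyte sum 10445 to 15219 and the oligodendrocyte lineage sum 7430 to 10081, the last lying below every vehicle array, with 1 of its 9 markers called lower. The part of these cell types in the receptor changes was not tested.

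The other genes of the pathway were taken from lists of receptors, ligands, adaptors, NF-kB genes and Ngfr partners, 69 of whose 114 genes were measured. At 8 h 0 of the 69 were called by limma and 2 had an unadjusted p under 0.05, a smaller share than the 10.7% of all genes. At 15 h 33 were called (47.8%, against 50.1% of all genes), 22 higher and 11 lower. At 24 h 39 were called (56.5%, against 54.7%), 26 higher and 13 lower. The split depended on the scaling: with median scaling 15 of 38 called genes were higher at 15 h and 18 of 47 at 24 h, and with no scaling 9 of 41 and 10 of 44. Over all genes the share of higher genes among those called was likewise 50.7% at 15 h and 50.1% at 24 h with quantile normalisation, but 23.6% and 21.8% with median scaling and 13.8% and 12.2% with none. The share of all genes called at 15 h and 24 h was 54.0% and 62.3% with median scaling and 54.2% and 67.4% with none. The median change of all genes at 15 h and 24 h was -0.16 and -0.25 with median scaling and -0.25 and -0.39 with none. Relative to that median, the 24 h changes of Tnfrsf12a, Tnfrsf1a, Tnfrsf10b and Tnfrsf21 were 4.44, 1.55, 0.75 and -0.63 with median scaling, against 4.70, 1.93, 0.68 and -0.64 with quantile normalisation.

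Of the other receptors 9 of 22 were measured. Fas, the prototype death receptor, was called higher by 0.83 ± 0.09 at 15 h (adjusted p = 1.26e-06, limma) and 1.40 ± 0.09 at 24 h (adjusted p = 2.47e-09), with signals of 221, 226 and 225 at 24 h, against 78.9, 87.2, 86.9 and 87.0 with vehicle. Ltbr, the lymphotoxin beta receptor, was called higher by 0.55 ± 0.11 at 15 h and 0.52 ± 0.11 at 24 h. It was detected on 1 of 4 vehicle arrays and on 3 of 3 at each of these times. In the lowest of the other settings its changes were 0.11 and 0.10. Tnfrsf19 was called lower at 24 h, at -0.48 ± 0.10, but a second detected probe of it went the other way, at 0.33, so its direction is uncertain. Relt was called lower at 24 h, where it was detected on 0 of 3 arrays, and was at least 1.01-fold lower. With no scaling the list had 2 called higher and 4 lower at 15 h, and 2 and 3 at 24 h. Over all genes 54.2% and 67.4% were called in that setting, of which 13.8% and 12.2% were higher. The remaining 5, Tnfrsf4, Tnfrsf11a, Tnfrsf22, Tnfrsf25 and Edar, named after their values were seen, were not called at 15 h or 24 h. The list's median was 0.04 at 24 h, beside 0.01 for all genes.

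Only 5 of 22 ligands were measured. Tnf, Tnfsf12, which encodes TWEAK, and Tnfsf10, which encodes TRAIL, were detected on 0 arrays, and Bdnf on 1, so no level is given for them. Tnfsf13, which encodes APRIL, rose by 0.44 ± 0.08 at 15 h and 0.52 ± 0.08 at 24 h (adjusted p = 3.52e-05, limma). Its 24 h call was lost with no scaling (0.20), and in the lowest of the other settings its changes were 0.09 and 0.12. Ntf3, the neurotrophin 3 gene, fell at 15 h, with a change of -1.05 ± 0.18, and at 24 h, with one of -1.19 ± 0.18 (adjusted p = 3.65e-05). It had signals of 70.1, 75.9 and 69.2 at 24 h, against 168, 184, 109 and 210.3 with vehicle. With neqc on the gene profile its changes were -0.27 and -0.30. Eda was called at 24 h with a change of -0.21 ± 0.08, but not in 12 of the other settings.

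Adaptors and death signalling genes, 28 of 35 measured, had 12 called higher and 3 lower at 15 h, and 10 higher and 3 lower at 24 h. These 15 and 13 of 28 genes stand beside 50.1% and 54.7% of all genes called. At 24 h the list had 5 called higher and 15 lower with median scaling and 3 and 17 with none. Over all genes 62.3% and 67.4% were called in these settings, of which 21.8% and 12.2% were higher. The genes named next kept their direction in these settings unless stated. Chuk, the IKK alpha kinase, rose by 1.02 ± 0.13 at 15 h and by 1.27 ± 0.13 at 24 h (adjusted p = 5.7e-07, limma), with 697, 727 and 720.3 at 24 h, against 289, 295, 336 and 266 with vehicle. Its 24 h change was 0.66 with median scaling and 0.52 with none. Ripk1, the kinase at the TNF receptor 1 complex, rose by 0.40 ± 0.10 at 15 h and 0.90 ± 0.10 at 24 h (adjusted p = 1.69e-06). At 15 h its call was lost with each of the other scalings, the change being -0.01 with none, and at 24 h it was lost with no scaling (0.30). Traf1 rose by 0.69 ± 0.08 and 0.67 ± 0.08 at 15 h and 24 h, or 0.16 and 0.15 in the lowest of the other settings. Traf4 was called lower at 24 h, at -0.64 ± 0.16, or -1.32 with no scaling.

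Among the genes of the caspase arm, Casp8, the initiator caspase of death receptors, was detected on 0 of 4 vehicle and 3 of 3 of the 24 h arrays. With the main processing it was at least 1.34-fold higher at 24 h (adjusted p = 3.19e-06, limma). In the lowest of the other settings its change was only 0.09. Fadd, the adaptor that binds caspase-8, was called higher by 0.62 ± 0.13 at 24 h, but only 0.15 with median scaling and 0.01 with none, where the call was lost. Cflar, the caspase-8 inhibitor, was detected on 0 arrays. Tradd and Traf2, which join TNF receptor 1 to its kinases, were not called, at -0.17 ± 0.12 and -0.22 ± 0.10 at 24 h. Map3k5, the ASK1 kinase, was called lower at 24 h, where it was detected on 0 of 3 arrays. With the main processing it was at least 1.18-fold lower, but its smallest change in the other settings was -0.04. Tab2, an adaptor of the TAK1 kinase, was called higher by 0.78 ± 0.10 at 15 h. That call was lost with median scaling (0.29) and with no scaling (0.20). At 24 h Tab2 was not called, at 0.09 ± 0.10, which turned to a called -0.53 with median scaling. Tab1, a partner of the same kinase, was called at 0.39 ± 0.11 at 15 h and -0.26 ± 0.11 at 24 h. The 15 h direction of Tab1 turned with each of the other scalings, 2 further probes stood at 0.05 and -0.16, and its 24 h call was lost in 17 settings but stood at -0.92 with median scaling and -1.06 with none. Rbck1 and Ikbkg were called lower at 15 h (-0.40 ± 0.14 and -0.36 ± 0.12), and both calls were lost without 15 h replicate 1. A second detected probe of Ikbkg stood at 0.02 at 15 h. The call of Ikbkg was lost in 13 settings, among them the mean of its probes (-0.17).

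NF-kB genes and known targets of the factor, 14 of 20 measured, had 6 called higher and 1 lower at 15 h, and 11 higher and 0 lower at 24 h. Over all genes 25.4% were called higher and 24.7% lower at 15 h, and 27.4% and 27.3% at 24 h. With no scaling the list's counts were 2 and 1 at 15 h and 5 and 1 at 24 h, and with median scaling 8 and 0 at 24 h. Over all genes 54.2% and 67.4% were called with no scaling, of which 13.8% and 12.2% were higher. With median scaling 62.3% were called at 24 h, of which 21.8% were higher. The list's median was 0.54 at 24 h, beside 0.01 for all genes, and 0.27 with median scaling, beside -0.25. Cxcl1, a neutrophil chemokine, was the highest of the named genes at 24 h, at 2.39 ± 0.12 (adjusted p = 3.61e-10, limma). It had 454, 375 and 406 at 24 h, against 77.3, 75.8, 89.0 and 72.3 with vehicle, and was not called at 15 h, at 0.26 ± 0.12. With neqc on the gene profile its 24 h change was 1.18 and that of Icam1 0.24, both still called. Icam1, an adhesion molecule, followed the same course, at 0.98 ± 0.09 at 24 h (adjusted p = 1.23e-07) and 0.19 ± 0.09 at 15 h, which was not called.

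Rela, the p65 subunit, rose by 0.96 ± 0.13 at 15 h and 1.14 ± 0.13 at 24 h (adjusted p = 2.13e-06, limma), with both calls lost with no scaling, at 0.39 and 0.32, and a 24 h change of 0.46 with median scaling. Vcam1 rose by 1.41 ± 0.19 and 1.00 ± 0.19, the 24 h call being lost in each of the other scalings, at 0.15 to 0.40, and the 15 h change being 0.80 with none. Sod2, the mitochondrial superoxide dismutase, was called at 0.87 ± 0.13 and 0.59 ± 0.13, with the 15 h call lost with no scaling (0.27), and at 24 h its change turned to -0.12 with median scaling. For Rela, Vcam1 and Sod2, 15 h replicate 1 had the highest signal of its group. With a single array left out, their 15 h changes were 0.76, 1.12 and 0.67 at the lowest. Nfkbia and Tnfaip3, which encode the feedback inhibitors IkB alpha and A20, were not called at 24 h, at 0.14 ± 0.23 and 0.13 ± 0.07. The call of Nfkbia at 15 h, 0.62 ± 0.23, was lost without 15 h replicate 1, at 0.17. Nfkbie was called lower at 15 h, where it was detected on 0 of 3 arrays and was at least 1.07-fold lower, and that call was lost without the same array.

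**Figure D4:**
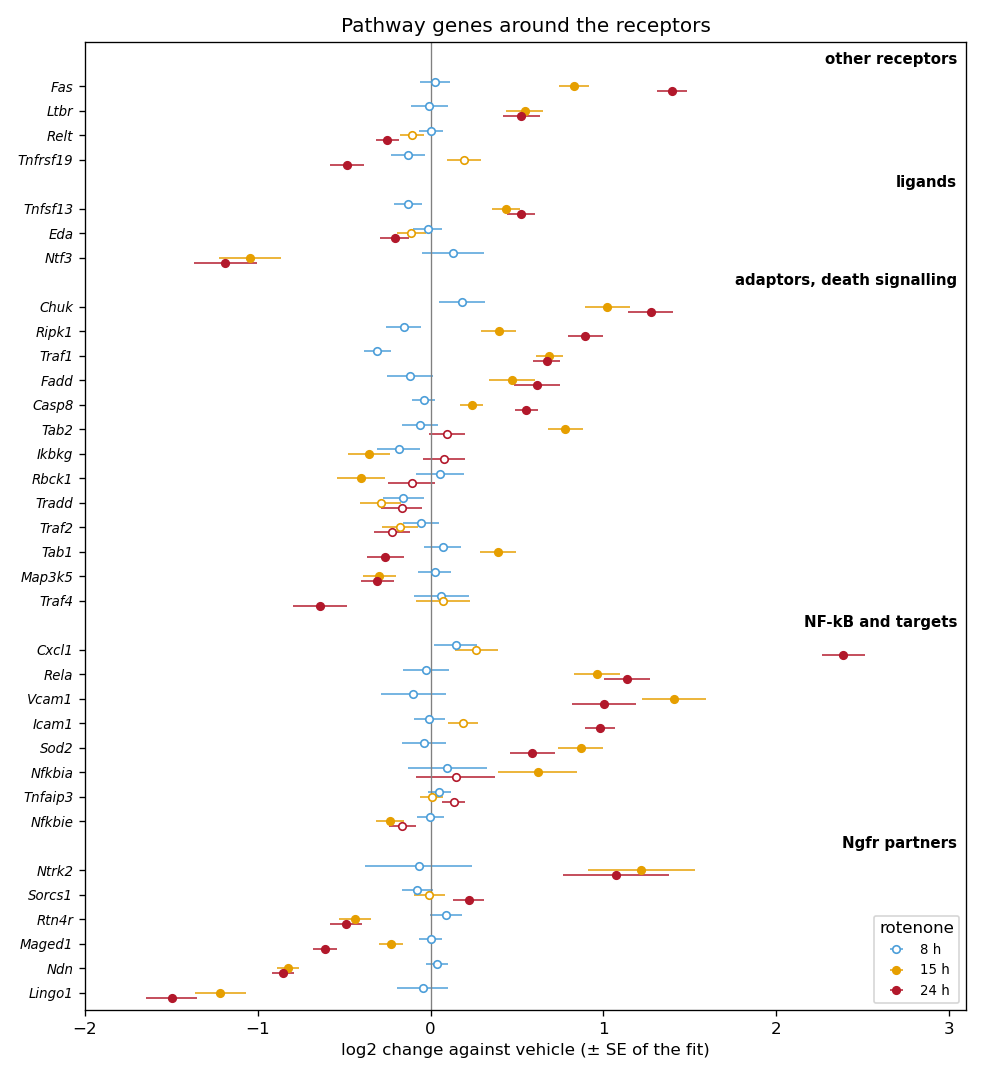
Log2 change against vehicle (x axis, ± SE of the fit) of the named pathway genes at 8 h, 15 h and 24 h of rotenone, grouped by list. Filled points were called at an adjusted p under 0.05. Cxcl1 lies farthest to the right at 24 h, at 2.39, and Lingo1 farthest to the left, at -1.50.

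Of the partners of p75, 13 of 15 were measured, with 1 called higher, 6 lower and 6 not called at 15 h, and 2 higher, 6 lower and 5 not called at 24 h. Over all genes 24.7% and 27.3% were called lower at these times. At 24 h 1 was called higher and 10 lower with median scaling, and 0 and 11 with none. Over all genes 62.3% and 67.4% were called in these settings, of which 21.8% and 12.2% were higher. Lingo1, a p75 co-receptor of myelin inhibitors, fell at 24 h, with a change of -1.50 ± 0.15 (adjusted p = 3.32e-07, limma). Its signals were 141, 145 and 122 at 24 h, against 386, 420.1, 293 and 452 with vehicle, and with neqc on the gene profile its change was -0.91. Ndn and Maged1, proteins of the MAGE family that bind p75, were called lower at 24 h, at -0.85 ± 0.06 and -0.61 ± 0.07, or -1.46 and -1.31 with no scaling. Rtn4r, the Nogo receptor, was called lower at 24 h, where it was detected on 0 of 3 arrays. With the main processing it was at least 1.24-fold lower, but its smallest change in the other settings was -0.08. Ntrk2, which encodes the BDNF receptor TrkB, went up, at 1.22 ± 0.31 at 15 h and 1.07 ± 0.31 at 24 h (adjusted p = 0.00776). One 15 h array stood far above the other 2, with 692, 189 and 195 at 15 h, and without it the 15 h change was 0.61. The 24 h call of Ntrk2 was lost with no scaling, at 0.51. Sorcs1 was called at 0.22 ± 0.09 at 24 h, and the call was lost in 21 settings.

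The genes whose log2 signals followed each receptor most closely over the 13 arrays were named as a description. For Tnfrsf12a they were Atf3 (Pearson r = 0.996), Cebpb (0.991) and Ctu2 (0.989). Atf3 changed by 0.38 ± 0.17 at 8 h, 1.69 ± 0.17 at 15 h and 3.15 ± 0.17 at 24 h. For Tnfrsf1a they were Angptl6, Snx33 and Crtap, each with r = 0.993. For Tnfrsf10b they were P4ha1 (0.993), Pawr (0.993) and Wfdc2 (0.992). Tnfrsf21 was followed by Sppl2b (0.970), Cdh10 (0.966) and Gnpat (0.964), and Sppl2b changed by -0.39 ± 0.08 at 15 h and -0.77 ± 0.08 at 24 h. Tnfrsf1b had a looser match, Eef1akmt4 at 0.915, Fbp2 at 0.907 and 1700024G13Rik at 0.902.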

How the data were processed

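The probe table holds bead signal intensity in the form the authors deposited, with no scaling. BeadStudio 3.2.6 had produced a profile with signal intensity per gene and a detection score, a fraction, per the file headers. The authors' deposited normalised values are a ratio to the array median and then to the vehicle median, as found by recomputing them. For all 13 samples the profile array with identical signals (tolerance 0.05) belonged to a different replicate of that group from the one the labels name, so chips were assigned both by the labels and by matching. The profile's 16 arrays include 3 of no sample here, and 102 of its columns were not used.

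Signals were background-corrected (normexp, offset 50), quantile-normalised and put on the log2 scale. The probe signals carried no detection p of their own, so a probe counted as detected from a signal cutoff on each array. The cutoff was the lowest signal with a gene detected at p under 0.05 on the matching profile array. Probes detected on at least 3 arrays were kept, with the brightest probe per gene. Symbols came from RefSeq by accession for 20514 probes and from the description for 2557, with 476 more not in that reference and 1066 unnamed. Genes were fitted with limma 3.58.1 in R 4.3.3 (eBayes with an intensity trend, residual df of 9), and the steps were tested on simulated data. Where no array of a group detected a gene, its fold is a bound, written as at least a fold. It was taken against the higher of the gene's own signal and the lowest detected signal on each array. Such a bound holds for the main processing only, and other settings could give a smaller change. The receptors and the gene lists were chosen with earlier results of these data known. Named pathway genes are the 3 called genes with the smallest p per list, direction and time, and a fixed set with Fas, Tnf, Tnfsf12, Tnfsf10, Bdnf, Tradd, Fadd, Ripk1, Traf2, Casp8, Cflar, Nfkbia and Tnfaip3, and 1 more gene that is not reported here. Same-numbered replicates correlated between -0.12 and 0.21 in their deviations, so the numbers were not taken as pairs. Alternatives are listed in the closing section.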

Additional observations from a re-analysis of the deposited data

Results flagged for a closer look

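On the vehicle arrays 3 named pathway genes had 1 array far from the other 3, measured as the gap to its nearest neighbour over the group's whole range. The ratio was 0.959 for Fas, where replicate 1 was low at 78.9, 0.862 for Maged1, where replicate 3 was high at 7481, and 0.86 for Traf2, where replicate 1 was low at 101. Chance alone puts about 1 in 20 groups past the limit used.

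The receptors were chosen for their response on these arrays, so their differences between times are a description. They are listed because limma called them, as it did 51.1% of all genes between 15 h and 8 h and 22.4% between 24 h and 15 h. Between 15 h and 8 h the log2 difference was 1.57 for Tnfrsf12a, 1.0 for Tnfrsf1a, 0.31 for Tnfrsf1b, 0.46 for Tnfrsf10b and -0.37 for Tnfrsf21. The call of Tnfrsf1b was lost with 5 of the other scalings and signal summaries, and that of Tnfrsf12a with the authors' deposited normalised values (1.17). Between 24 h and 15 h it was 2.39 for Tnfrsf12a, 1.19 for Tnfrsf1a, 0.27 for Tnfrsf10b and -0.32 for Tnfrsf21, and the calls of the last 2 were lost with median scaling (0.18 and -0.32) and with no scaling (0.13 and -0.37).

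The named pathway genes were compared in the same way between 24 h and 15 h. The difference was positive for Cxcl1 (2.12), Icam1 (0.79), Fas (0.57), Ripk1 (0.5), Ikbkg (0.43) and Casp8 (0.32). It was negative for Traf4 (-0.71), Tab2 (-0.69), Tnfrsf19 (-0.68), Tab1 (-0.65) and Maged1 (-0.38).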

How the results depend on the processing

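The alternatives were no background correction, median scaling, no scaling, the authors' normalised values, the gene profile's signals and neqc on them, no or a stricter detection filter, the mean of probes, either set of chips as a block or taken alone, the replicate number as a block, array weights, a fit of just the groups compared, and each array left out. In each of these outside the chip subsets 4 receptors were called at 24 h, and 3 or 4 at 15 h. The share of all genes called there ran from 34.3% to 67.4% at 24 h and from 29.9% to 64.6% at 15 h. Between 15 h and 8 h it ran from 30.7% to 64.6%, and between 24 h and 15 h from 12.8% to 43.4%. Nothing is read from the receptor counts, since the receptors were chosen on these arrays. At 8 h 1 receptor, Tnfrsf12a, was called with array weights and without 8 h replicate 2, where 24.0% and 1.61% of all genes were called. Within the matched chip 2, which holds 1 array at 8 h, the change of Tnfrsf12a was 1.31. With array weights 11 of the 69 pathway genes were called at 8 h. With an array left out 0 to 1 receptors and 0 to 1 pathway genes were called at that time. Between 15 h and 8 h 3 receptors were called with the authors' values and within the matched chip 1 and 2 within the labels' chip 2, against 5, 4 with median scaling, no scaling, the gene profile and neqc on it, and 4 to 5 with an array left out. Between 24 h and 15 h it was 2, against 4, with median scaling, no scaling, matched chip 1, labels' chip 2, matched chip 2 or only the 2 groups, 1 within the labels' chip 1, and 2 to 4 with an array left out, with 2 without 15 h replicate 2 or 3 or 24 h replicate 1. At 15 h 18, 16 and 14 pathway genes were called within the labels' chip 1, the matched chip 1 and the labels' chip 2, against 33, and at 24 h 20 within the labels' chip 1, against 39. With an array left out these were 29 to 36 and 35 to 42. Fewer arrays entered the chip subsets, with 1 array at 8 h and 15 h on the second chip and 1 at 24 h on the first, each assumed to vary like the other groups; otherwise the cause was not tested. With a replicate block 4 receptors were called at 15 h and 24 h, 5 between 15 h and 8 h and 3 between 24 h and 15 h, with 32 and 37 pathway genes at 15 h and 24 h. The calls over all genes at 8 h were 48, but 10 without 8 h replicate 1 or 3, 178 without 8 h replicate 2, 186 without 15 h replicate 1 and 2661 with array weights.

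The sign turned, with one of the values called, for Ikbkg at 24 h (-0.48 with median scaling, -0.62 with none, -0.42 with the authors' values), Tab2 at 24 h (-0.53, -0.67 and -0.45), Sod2 at 24 h (-0.12, -0.26 and -0.02) and Tab1 at 15 h (-0.11, -0.20 and -0.09). With no scaling it turned for Ripk1 at 15 h (-0.01), Sorcs1 at 24 h (-0.01), Tnfrsf19 at 15 h (-0.39) and Traf4 at 15 h (-0.49, and -0.41 within the matched chip 2). Detection limits the weak probes, Tnfrsf10b, Tnfrsf1b and Casp8 among them, whose changes neqc on the gene profile shrank.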
